A study of Mus musculus with 18 samples.

Results

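The genes described here are 10 inhibitory and lectin-like receptors of mouse macrophages: Klrb1b, Clec2d, Clec12a, Pirb, Lilrb4a, Cd300a, Cd300lf, Siglec1, Siglece and Sirpa. They were chosen by name from a list of such receptors, and the list was selected on earlier results of the same libraries. Which contrast the selection used is not recorded, so the p-values of all 10 may be affected by that selection. All 10 were among the 16909 genes of the count table and among the 12465 with enough reads to test. The libraries were polyA RNA-seq of Mus musculus bone marrow macrophages in 4 groups. Con was the mock group (n = 3), and LPS was the inflammatory positive control (n = 5). STSABs and UVABs (n = 5 each) received apoptotic bodies (ABs) of hucMSC, a mesenchymal stem cell preparation, made with STS or with UV. The labels give no dose, time, strain or age, and do not say whether the AB groups also received LPS. They do not say whether replicates were separate cultures, so p-values measure only the spread between libraries.

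Inhibitory receptors of myeloid cells carry a cytoplasmic ITIM motif that is phosphorylated by Src-family kinases and then recruits phosphatases such as SHP-1 (Ptpn6) and SHIP-1 (Inpp5d), which damp activating signals. Their ligands include MHC class I (Pirb), Cd47 (Sirpa), sialylated glycans (Siglece and Siglec1), phosphatidylserine and related lipids on dying cells (Cd300a and Cd300lf) and the lectin-like protein Clr-b, encoded by Clec2d (Klrb1b). Clec2d is thus the ligand of another member, and Siglec1 (sialoadhesin) is an adhesion and uptake receptor without an ITIM, so these 2 of the 10 are not inhibitory receptors in the strict sense.

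Promoter sequence was available from RefSeq (GRCm38.p6) for 7 of the 10 genes. The 3 shown are those of the genes with the largest differences between LPS and Con, 2 lower and 1 higher, and each gives the 200 bases before the annotated start, 5′ to 3′ on the gene's strand. They are chr6:128826316-128826515 (minus strand) for Klrb1b, chr11:114889841-114890040 (plus strand) for Cd300a and chr6:129180415-129180614 (plus strand) for Clec2d. Capitals mark matches to 7 searched motifs that lie wholly within these 200 bases.
Klrb1b: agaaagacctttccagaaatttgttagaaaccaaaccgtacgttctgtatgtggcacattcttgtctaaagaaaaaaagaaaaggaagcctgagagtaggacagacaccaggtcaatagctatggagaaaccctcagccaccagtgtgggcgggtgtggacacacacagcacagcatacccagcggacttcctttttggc
Cd300a: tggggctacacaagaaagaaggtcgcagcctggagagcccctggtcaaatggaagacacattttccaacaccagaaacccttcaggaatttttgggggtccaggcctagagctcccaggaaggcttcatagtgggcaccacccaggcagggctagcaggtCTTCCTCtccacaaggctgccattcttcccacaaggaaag
Clec2d: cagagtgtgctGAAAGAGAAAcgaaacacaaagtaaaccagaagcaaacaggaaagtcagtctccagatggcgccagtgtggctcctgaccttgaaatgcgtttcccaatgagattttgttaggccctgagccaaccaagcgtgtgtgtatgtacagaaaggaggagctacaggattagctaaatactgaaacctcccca
The motifs were searched on both strands in each promoter window (250 bases before to 50 after the start). They were ISRE (GAAA, 2 bases of any kind, GAAA, in 3.44% of 32851 promoters), NF-kB (GGGA, 2 bases of any kind, TTCC, 1.47%), the hypoxia response element (ACGTG, 19.6%), PU.1 (GAGGAAG, 13.6%), AP-1 (TGANTCA, 7.81%), C/EBP (TTGCNNAA, 10.8%) and C/EBP-ATF (TGATGNAA, 3.97%). A PU.1 match lay in 5 of the 7 windows (Clec12a, Pirb, Cd300a, Cd300lf and Siglece). A C/EBP match lay in 2 (Clec12a and Cd300a) and an ISRE match in 1, that of Clec2d. Clec2d also had a hypoxia response element match, Clec12a an AP-1 match and Cd300lf a C/EBP-ATF match. The C/EBP match of Cd300a (at -214) and the hypoxia response element match of Clec2d (from -2, across the start) are not within the bases shown. In the Klrb1b stretch no letters matched, but the annotation gives 2 starts for Klrb1b and only the first listed was searched. A match is a description of the letters, not of binding.

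The libraries held 17588357 to 18675283 estimated counts each. The smallest estimated count of any member in any library was 91, for Klrb1b. Levels are given as CPM (counts relative to the library total after TMM scaling, edgeR's trimmed-mean scaling between libraries). The mean TMM factor was 1.51 in Con and between 0.902 and 0.932 in the other groups, so comparisons with Con depend on the scaling. The median gene differed between LPS and Con by -0.03 (log2) as reported, by -0.31 with upper-quartile scaling and by -0.78 with library totals alone, and members are described relative to that median where it matters. The libraries STSABs 2 and UVABs 2 stood apart from the rest of their groups over all genes. The chi-square per gene between 2 libraries of a group was 19.5 to 32.9 where one of them was included, 2.49 to 8.89 among the other AB libraries and 2.27 to 14.4 within Con and LPS. Among the members they stood apart for Klrb1b and Clec12a, and STSABs 2 also for Cd300a. For these genes the values without them are given too. Markers of macrophages, 10 of 10 above 0 in every group, summed to 9809 to 13786 CPM. In such bulk samples fewer cells of a type and less RNA per cell cannot be told apart.

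**Figure D1:**
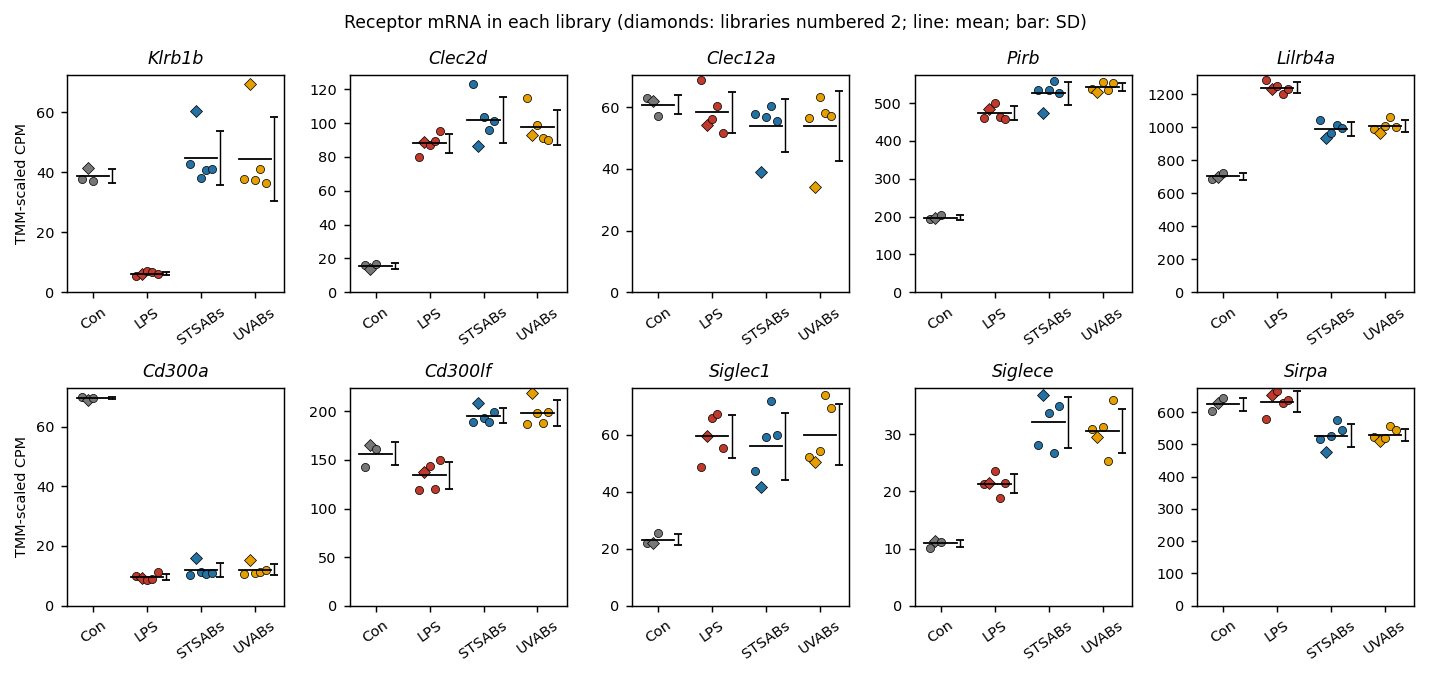
TMM-scaled CPM (y axis, from 0) of the 10 receptor genes in each of the 18 libraries, by group. Circles are libraries, diamonds the libraries numbered 2, lines the group means and bars the SD. Klrb1b is between 5.45 and 6.99 in the LPS libraries and at 36.4 or above in every other library.

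Between LPS and Con, 5 of the 10 receptors were higher (Clec2d, Pirb, Lilrb4a, Siglec1 and Siglece), 3 were lower (Klrb1b, Cd300a and Cd300lf) and 2 did not pass an adjusted p of 0.05 (Clec12a and Sirpa). Of all tested genes 40.0% were called higher and 43.0% lower, so the share of members called is near the background. Klrb1b and Cd300a fell to 16.2% and 13.8% of their Con means, and Clec2d rose 5.62-fold. The median log2 difference was 0.42 over the members and -0.03 over all genes. In STSABs against LPS, 6 members were higher (28.4% of all genes were called higher), 2 were lower (29.0% of all genes) and 2 did not pass. In UVABs against LPS, 5 were higher (28.6%), 2 were lower (28.8%) and 3 did not pass. The member medians were 0.18 and 0.17, against -0.01 and 0.00 over all genes. Both counts of higher members include Klrb1b, whose difference is only described. These shares lie above the background for higher genes, but the members were selected with such results known, so nothing is read from them. These 2 comparisons share the LPS libraries. Against Con, each AB group had 6 members higher, 2 lower and 2 that did not pass. The shares of all genes called were 40.0% higher and 42.6% lower in STSABs, and 40.2% higher and 42.4% lower in UVABs.

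**Figure D2:**
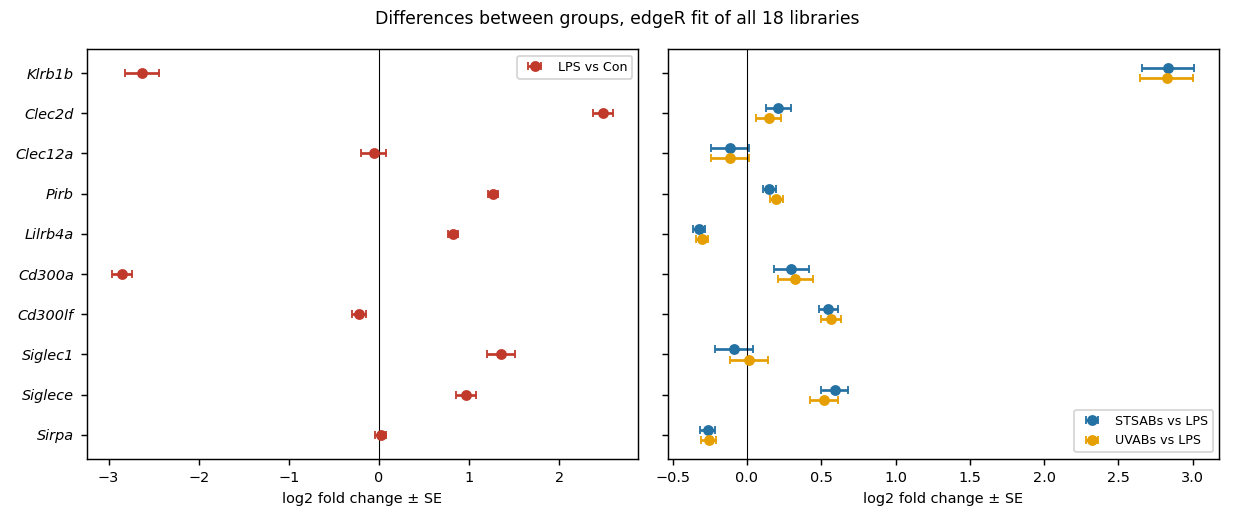
Fitted log2 fold change ± SE (x axes) of the 10 receptor genes for LPS against Con (left) and for STSABs and UVABs against LPS (right). Klrb1b stands at -2.63 on the left and at 2.83 and 2.82 on the right, while the other 9 genes lie between -0.32 and 0.59 on the right.

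Klrb1b (NKR-P1B), an inhibitory lectin-like receptor known best from natural killer cells, had the largest swing. Its CPM was 37.7, 41.6 and 37.2 in Con. The LPS libraries had 5.45, 5.998, 6.99, 6.78 and 6.14. In STSABs it was 42.9, 60.7, 38.1, 40.8 and 41.3, and in UVABs 37.8, 69.5, 37.4, 41.2 and 36.4. The LPS libraries were all far below the others, and the AB groups overlapped Con. LPS against Con gave a log2 difference of -2.63 ± 0.19 (SE, adjusted p = 1.65e-11, edgeR quasi-likelihood). That p-value is not free of selection, since the same LPS libraries entered the AB differences by which the gene was known beforehand. The differences from LPS were 2.83 ± 0.18 in STSABs and 2.82 ± 0.18 in UVABs, given without a test because Klrb1b was known beforehand to be among the genes with the largest differences there. It ranked 14th and 18th by log2 difference among the 12465 genes. Without STSABs 2 and UVABs 2, these values were 2.70 and 2.60. Against Con, STSABs differed by 0.20 (adjusted p = 0.256) and UVABs by 0.19 (adjusted p = 0.281). Without both libraries numbered 2, these were 0.07 (adjusted p = 0.305) and -0.03 (adjusted p = 0.699). With library totals alone they were -0.49 and -0.51, both past the threshold, but the median gene was then at -0.74 in both comparisons, and relative to it Klrb1b was 0.24 and 0.23.

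Clec2d, which encodes Clr-b, the ligand of the Klrb1b product, was higher in LPS. Its CPM was 16.4, 13.7 and 16.9 in Con. In LPS it was 79.7, 88.5, 86.9, 89.5 and 95.1. No LPS library came near the Con range, and the difference was 2.49 ± 0.11 (log2, SE, adjusted p = 2.41e-15). In STSABs the CPM was 123, 86.1, 103, 95.7 and 101, and in UVABs 115, 92.9, 98.6, 91.0 and 89.8. Both AB groups overlapped LPS. STSABs were higher than LPS by 0.21 ± 0.08 (adjusted p = 0.0342), a call lost without any one of LPS 1 (0.18, adjusted p = 0.0928), LPS 2 (0.21, adjusted p = 0.0545), LPS 3 (0.21, adjusted p = 0.0608), STSABs 1 (0.13, adjusted p = 0.148) or STSABs 3 (0.21, adjusted p = 0.0604). For UVABs the difference was 0.15 ± 0.08 (adjusted p = 0.138).

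The ratio of Klrb1b to Clec2d counts within a library does not depend on scaling. It was 2.51 ± 0.456 (SD, n = 3) in Con and 0.0713 ± 0.00650 (SD, n = 5) in LPS. With STSABs it was 0.451 ± 0.145 and with UVABs 0.463 ± 0.166 (5 libraries each). The LPS ratios, 0.0645 to 0.0803, lay below all the others, and the AB ratios, 0.329 to 0.748, lay below all 3 Con ratios, which began at 2.20. In the AB libraries Klrb1b overlapped its Con range, while Clec2d lay above its own.

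Markers of natural killer and T cells, in which Klrb1b is also expressed, were few. Their 14 genes in the table summed to 6.70 to 7.33 CPM in Con and 11.4 to 12.9 in LPS. The sums were 10.9 to 12.51 with STSABs and 10.2 to 13.3 with UVABs. Among the defining markers, Ncr1 was at 0 in Con, and Cd3e was at 0 in LPS and STSABs. Of the 6 that were tested, 4 were called higher (40.0% of all genes) and 1 lower (43.0%) in LPS than in Con. Against LPS, 1 was called higher in each AB group (28.4% of all genes in STSABs and 28.6% in UVABs). The gene called lower in LPS and higher in both AB groups was Klrd1 (CD94), a receptor chain of natural killer cells, which averaged 2.01 CPM in Con, 0.265 in LPS, 0.983 with STSABs and 0.953 with UVABs. Its log2 difference was -2.88 ± 0.48 in LPS against Con (adjusted p = 8.62e-06). Against LPS it was 1.86 ± 0.53 with STSABs (adjusted p = 0.00469) and 1.81 ± 0.53 with UVABs (adjusted p = 0.0059). Klrd1 thus moved in the same directions as Klrb1b, but the AB groups were lower than Con (-1.03 and -1.08, adjusted p = 0.014 and 0.0111). Klrd1 levels were low, and both AB groups overlapped LPS. The libraries ran from 0 to 0.540 CPM in LPS, 0.419 to 1.52 with STSABs and 0.408 to 2.10 with UVABs. Cd8a and Gzmb, genes of cytotoxic cells, were higher in LPS than in Con by 2.05 and 4.04. The part of such cells in the Klrb1b differences was not tested.

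Klrb1b, Clec2d and Clec12a lie on one stretch of chromosome 6 in the GRCm38 RefSeq annotation, which was used for neighbour relations only. From Klrb1b to Clec12a that stretch holds 11 coding genes, of which 8 were tested. Clec2i, which encodes Clr-g, a ligand of the related receptor NKR-P1F, was lower in LPS than in Con (-1.69 ± 0.07, adjusted p = 1.26e-15) and higher in STSABs than in LPS (1.34 ± 0.07, adjusted p = 1.43e-12). Klrb1f, the gene of NKR-P1F, was also lower in LPS (-1.70 ± 0.27, adjusted p = 4.65e-06), and its difference in STSABs was 0.52 ± 0.27 (adjusted p = 0.109). Klrb1c, next to Klrb1b on its other side, was lower in LPS (-3.47 ± 0.34) with no call in the AB groups (-0.15 and -0.42). Cd69, an early activation marker, was higher in LPS by 5.62 ± 0.09. Neighbours therefore moved in both directions between LPS and Con.

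Clec12a, an inhibitory C-type lectin that senses uric acid crystals of dead cells, did not pass in any of the comparisons as scaled here. Its CPM ran from 57.2 to 63.1 in Con and from 51.6 to 68.8 in LPS. In STSABs it ran from 39.0 to 60.5 and in UVABs from 34.1 to 63.4. All groups overlapped, and the lowest library of each AB group was the one numbered 2. As scaled here, LPS differed from Con by -0.06 ± 0.14 (adjusted p = 0.703), and STSABs and UVABs from LPS by -0.11 ± 0.13 and -0.12 ± 0.13 (adjusted p = 0.473 and 0.454). Without both libraries numbered 2, the last 2 values were -0.01 (adjusted p = 0.867) and 0.01 (adjusted p = 0.915). With upper-quartile scaling the difference of LPS from Con was -0.34 (adjusted p = 0.0305), and with library totals -0.81 (adjusted p = 1.87e-05). Relative to the median gene it was -0.03 under both of these scalings. The AB groups against Con also passed under them, at -0.44 (STSABs) and -0.45 (UVABs) and at -0.87 and -0.88, and relative to the median gene these lay between -0.13 and -0.14.

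Pirb, the paired immunoglobulin-like receptor that binds MHC class I, rose under LPS and stood higher again in the AB groups. Its CPM was 193, 196 and 204 in Con. The LPS libraries had 462, 484, 501, 462 and 459. Every LPS library was above the Con range, and the difference was 1.26 ± 0.05 (log2, SE, adjusted p = 1.4e-15). In STSABs the CPM was 534, 475, 535, 557 and 528, and in UVABs 538, 530, 557, 536 and 553. UVABs lay above all LPS libraries, and STSABs 2 fell within the LPS range. STSABs were higher than LPS by 0.15 ± 0.04 (adjusted p = 0.0064) and UVABs by 0.20 ± 0.04 (adjusted p = 0.000746). With only replicates 1 to 3 of each group the STSABs difference was 0.10 (adjusted p = 0.192).

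Lilrb4a (gp49B), an ITIM receptor of the leukocyte immunoglobulin-like family, rose under LPS but stood lower in the AB groups. Its CPM was 684, 701 and 722 in Con. In LPS it was 1291, 1231, 1249, 1204 and 1232. Con and LPS were well apart, with a difference of 0.82 ± 0.05 (adjusted p = 9.29e-13), although with library totals alone it was 0.08 (adjusted p = 0.147). In STSABs the CPM was 1043, 938, 966, 1016 and 998, and in UVABs 993, 965, 1009, 1065 and 1003. Every AB library lay between the Con and the LPS ranges, though with library totals alone the AB groups were below Con (-0.20 and -0.19). Relative to the median gene, which was then at -0.74, they were 0.54 and 0.56 above Con. STSABs were lower than LPS, with a log2 difference of -0.32 ± 0.04 (adjusted p = 1.29e-06) and UVABs likewise, with -0.30 ± 0.04 (adjusted p = 3.21e-06). The neighbouring gene Lilr4b, a near relative, had differences of 0.84 ± 0.05 in LPS against Con and -0.27 ± 0.04 in both AB groups against LPS.

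Pirb and Lilrb4a had estimated counts that were not whole in all 18 libraries, and Cd300a in 14, so reads of these genes may have been shared out with close relatives such as the Pira genes and Lilr4b, and their levels are uncertain to that extent. The Pirb to Lilrb4a ratio, free of scaling, differed between the groups. The 3 Con libraries averaged 0.281 ± 0.00155 (SD) and the 5 LPS libraries 0.382 ± 0.0170. With apoptotic bodies it averaged 0.530 ± 0.0211 (STSABs) and 0.539 ± 0.0206 (UVABs, 5 libraries each). The AB ratios began at 0.503, above the highest LPS ratio of 0.401.

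**Figure D3:**
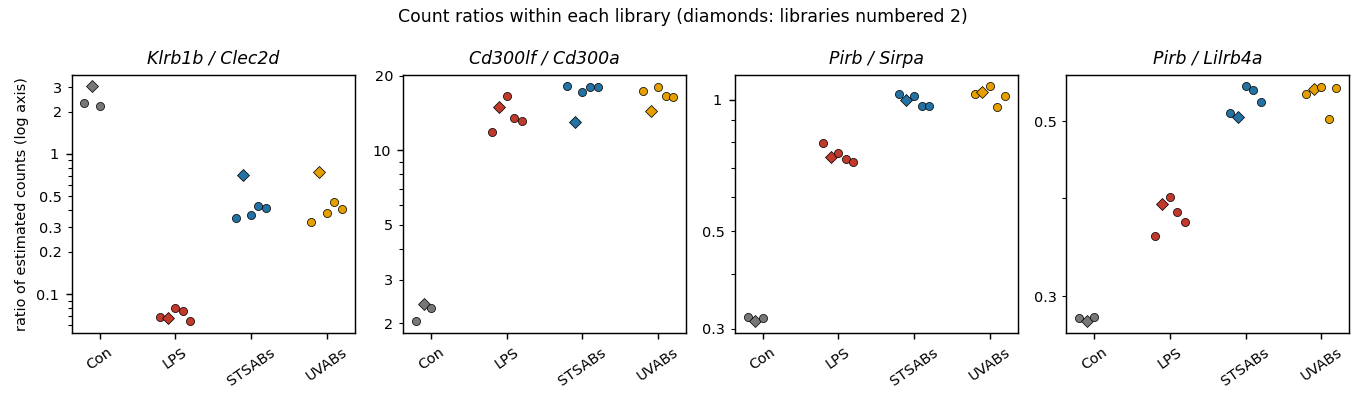
Ratios of estimated counts between members within each of the 18 libraries (y axes, log scale), by group, which no scaling between libraries can change. Circles are libraries and diamonds the libraries numbered 2. The Klrb1b to Clec2d ratio was lowest in LPS (mean 0.0713) and the Pirb to Lilrb4a ratio was highest in the AB groups (means 0.530 and 0.539).

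Cd300a, an inhibitory receptor for phosphatidylserine and phosphatidylethanolamine, had the largest fall under LPS among the 10 genes. Its CPM was 69.8, 69.1 and 69.8 in Con. The LPS libraries had 9.996, 9.15, 8.64, 8.94 and 11.4. All LPS libraries were far below Con, with a difference of -2.85 ± 0.11 (log2, SE, adjusted p = 3.43e-16). In STSABs the CPM was 10.4, 16.05, 11.2, 10.53 and 11.04, and in UVABs 10.7, 15.2, 10.99, 11.3 and 12.1. Both AB groups stayed far below Con and overlapped LPS, and the highest library of each was the one numbered 2. STSABs were higher than LPS by 0.30 ± 0.12 (adjusted p = 0.0347) and UVABs by 0.33 ± 0.12 (adjusted p = 0.0215). The STSABs call was lost without STSABs 2 (0.17, adjusted p = 0.153), LPS 2 (0.28, adjusted p = 0.0697), LPS 3 (0.26, adjusted p = 0.0836) or LPS 4 (0.27, adjusted p = 0.0755). The UVABs call was lost without UVABs 2 (0.23, adjusted p = 0.08), LPS 3 (0.29, adjusted p = 0.0568) or LPS 4 (0.30, adjusted p = 0.0509). With both AB libraries numbered 2 left out together, the values were 0.17 (adjusted p = 0.0689) and 0.23 (adjusted p = 0.0133).

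Cd300lf (CLM-1), which also binds phosphatidylserine and is known in the uptake of apoptotic cells, behaved otherwise. Its CPM was 143, 166 and 161 in Con. In LPS it was 119, 137, 144, 120 and 150. These groups overlapped, and the difference of -0.22 ± 0.07 (adjusted p = 0.00842) was lost without Con 2 (-0.18, adjusted p = 0.0567). In STSABs the CPM was 189, 208, 194, 189 and 199, and in UVABs 187, 219, 199, 188 and 199. Every AB library was above every LPS and Con library. STSABs were higher than LPS by 0.55 ± 0.06 (adjusted p = 3.23e-07) and UVABs by 0.57 ± 0.06 (adjusted p = 2.05e-07). Against Con the values were 0.32 ± 0.07 and 0.34 ± 0.07 (adjusted p = 0.000421 and 0.000232), which fell to 0.06 and 0.07 with upper-quartile scaling (adjusted p = 0.476 and 0.363) and turned to -0.37 and -0.36 with library totals. Relative to the median gene these were 0.36 and 0.38 under both scalings.

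The mRNA ratio of the 2 phosphatidylserine receptors thus differed between Con and the other groups. The Cd300lf to Cd300a ratio averaged 2.25 ± 0.181 (SD) over the 3 Con libraries and 14.0 ± 1.82 over the 5 LPS libraries. It was 16.9 ± 2.21 with STSABs and 16.6 ± 1.39 with UVABs (5 libraries each). The lowest ratio outside Con was 11.9 and the highest in Con 2.40. The LPS ratios (11.9 to 16.6) overlapped those of STSABs (13.0 to 18.1) and UVABs (14.4 to 18.1). Cd300lb, the activating neighbour of Cd300a, was lower in LPS than in Con (-4.22 ± 0.16, adjusted p = 1.31e-16).

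Siglece, an ITIM-bearing sialic acid receptor of mouse myeloid cells, rose from Con to LPS and again to the AB groups. Its CPM was 10.2, 11.4 and 11.1 in Con. The LPS libraries had 21.3, 21.5, 23.5, 18.8 and 21.5. No library of LPS overlapped Con, and the difference was 0.97 ± 0.11 (log2, SE, adjusted p = 6.87e-08), but 0.22 (adjusted p = 0.0665) with library totals alone. In STSABs the CPM was 28.2, 36.8, 33.8, 26.7 and 35.01, and in UVABs 31.0, 29.5, 31.3, 25.3 and 36.01. All AB libraries were above all LPS libraries. STSABs were higher than LPS by 0.59 ± 0.09 (adjusted p = 1.51e-05) and UVABs by 0.52 ± 0.09 (adjusted p = 6.77e-05).

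Siglec1, sialoadhesin, rose under LPS and did not pass between the AB groups and LPS. Its CPM was 22.05 to 25.5 in Con and 48.9 to 67.3 in LPS. With STSABs it was 41.8 to 71.9, and with UVABs 50.4 to 73.9. LPS was higher than Con by 1.36 ± 0.16 (adjusted p = 4.48e-08) without overlap. The AB differences from LPS were -0.09 ± 0.13 (adjusted p = 0.587) and 0.01 ± 0.13 (adjusted p = 0.931). Within the AB groups its libraries were widely spread, with SDs of 11.8 and 10.8 CPM.

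Sirpa, the receptor for the Cd47 signal against phagocytosis, did not pass between Con and LPS as scaled here and was lower in the AB groups. Its CPM was 603 to 643 in Con and 579 to 664 in LPS. In STSABs it was 517, 475, 525, 575 and 544, and in UVABs 522, 510, 519, 556 and 543. The AB libraries were all below the lowest LPS library. STSABs were lower than LPS, with a log2 difference of -0.26 ± 0.05 (adjusted p = 0.000145) and UVABs likewise, with -0.26 ± 0.05 (adjusted p = 0.000197). LPS differed from Con by 0.02 ± 0.06 (adjusted p = 0.767), but by -0.26 (adjusted p = 0.000179) with upper-quartile scaling and by -0.73 (adjusted p = 9.37e-11) with library totals. Relative to the median gene it was 0.05 under both of these scalings. Its ligand Cd47 was higher in LPS than in Con by 1.89 ± 0.04 (adjusted p = 2.76e-20) and lower in STSABs than in LPS (-0.15 ± 0.04, adjusted p = 0.00149). The ratio of Pirb to Sirpa counts averaged 0.316 ± 0.00363 (SD) over the 3 Con libraries and 0.749 ± 0.0300 over the 5 LPS libraries. It was 0.998 ± 0.0283 with STSABs and 1.03 ± 0.0398 with UVABs (5 libraries each).

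Markers of neutrophils and their precursors, cells that also express several of these receptors, moved with the AB groups. Their 12 genes summed to 1224 to 1520 CPM in Con and 1881 to 2595 in LPS. With STSABs they reached 3354 to 4822, and with UVABs 3273 to 4315. Against LPS, 12 of 12 were called higher in STSABs (28.4% of all genes) and 11 of 12 in UVABs (28.6%). None of them was at 0 in a whole group, and the defining marker Ly6g had means of 3.27 CPM in Con and 4.78 in LPS, against 7.80 with STSABs and 7.71 with UVABs. Their part in the members' differences between the AB groups and LPS was not tested. The 12 dendritic cell markers summed to 1856 to 2017 CPM in Con and 5036 to 5720 in the other groups, but they moved both ways. Of the 10 that were tested, 6 were called higher (40.0% of all genes) and 3 lower (43.0%) in LPS than in Con. Ccr7 averaged 142 CPM in Con and 2492 in LPS, while Cd24a averaged 458 and 68.5. The B cell markers, 6 in the table, summed to 2.46 to 7.30 CPM over all libraries, and the 9 stromal markers to 9.34 to 34.1, with Lum at 0 in Con.

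UVABs and STSABs were compared directly to ask whether the way of making the apoptotic bodies mattered for these receptors. No member passed, and none of the 12465 genes was called higher (0.00%) or lower (0.00%) by edgeR, DESeq2 or limma-voom. In edgeR 198 genes had an unadjusted p below 0.05, fewer than the share of 0.05 that would do so if no gene differed. That fit may therefore miss differences, and its lack of calls does not show that the groups were alike. No member was among those 198, and the smallest unadjusted p of a member was 0.319, for Pirb. The interval of the difference (95%, log2) was -0.31 to 0.29 for Klrb1b, -0.27 to 0.26 for Clec12a, -0.16 to 0.36 for Siglec1, -0.11 to 0.15 for Cd300lf and -0.07 to 0.11 for Lilrb4a. The libraries with the same number in these 2 groups deviated together, and fits with the number as a block also called 0 genes. With the block over all groups the intervals were -0.23 to 0.18 for Klrb1b, -0.22 to 0.21 for Clec12a, -0.05 to 0.26 for Siglec1, -0.08 to 0.11 for Cd300lf and -0.06 to 0.11 for Lilrb4a. With the block in the AB groups alone, that of Klrb1b was -0.13 to 0.08 and that of Siglec1 0.0042 to 0.20 (unadjusted p = 0.0417, adjusted p = 0.997), the only one of the 10 that did not include 0.

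**Figure D4:**
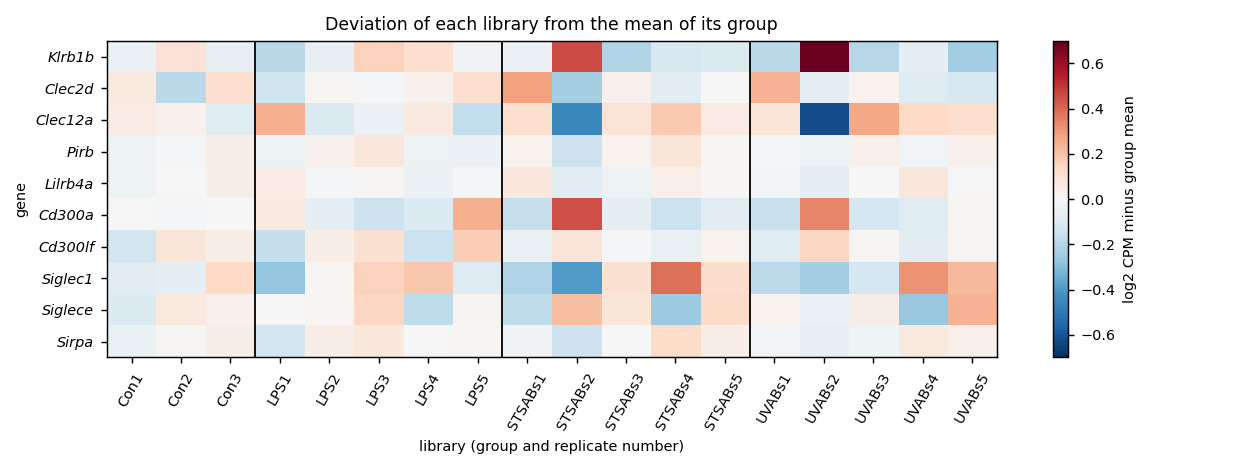
Deviation of each library (columns, x axis) from the mean of its group for the 10 receptor genes (vertical axis), as log2 CPM on a colour scale with red above and blue below the mean. Black lines part the groups. STSABs 2 and UVABs 2 share high Klrb1b and Cd300a and low Clec12a.

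Between genes, levels can be compared per kilobase of the longest coding transcript (GENCODE M21, GRCm38). On that scale Lilrb4a was the most abundant member in every group, with 509 CPM per kb in Con and 899 in LPS. Sirpa was second in Con (157) and LPS (159), and Pirb second in STSABs (138) and UVABs (142). Klrb1b went from rank 6 of 10 in Con (17.4) to rank 9 in LPS (2.81) and rank 7 in both AB groups (20.1 and 19.9). Cd300a was last in LPS (2.07), STSABs (2.55) and UVABs (2.60), and Siglec1 was last in Con (3.64).

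Other lists were set beside the members. Their counts stand against shares of all tested genes of 40.0% called higher and 43.0% lower in LPS against Con. Against LPS these shares were 28.4% and 29.0% in STSABs, and 28.6% and 28.8% in UVABs. Of the 22 kinases, phosphatases and adaptors of ITIM signalling, 12 were higher and 7 lower in LPS than in Con (6 and 15 with library totals), with a median of 0.35 against -0.03 for all genes. Cblb, a ubiquitin ligase, was higher by 2.38. The lipid phosphatase gene Inpp5d was lower (-2.43), as was the adaptor gene Dok2 (-2.43). In STSABs against LPS, 10 were higher and 5 lower (median 0.07), and in UVABs 10 and 6 (median 0.08). In STSABs the kinase genes Fgr (0.73) and Fyn (0.63) and Dok2 (0.68) were higher and Lcp2, an adaptor, lower (-0.65).

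Of 24 other inhibitory receptors, 20 were tested. In LPS against Con 15 were lower and 4 higher, with a median of -1.09, and with upper-quartile scaling the counts were again 15 and 4. Vsir (-2.00), Cd200r1 (-1.99) and Cd33 (-1.66), inhibitory receptors of myeloid cells, were lower, and Milr1 (1.11) was higher. Against LPS, 7 were higher and 4 lower in STSABs (median 0.03) and likewise 7 and 4 in UVABs (median 0.09). Siglecg, a sialic acid receptor, was higher by 1.41 in STSABs and 1.302 in UVABs. The inhibitory Fc receptor Fcgr2b was higher by 0.82 and 0.89, Cd72 by 1.20 and 1.18, and Pecam1 by 0.94 and 0.97. The members split 5 higher and 3 lower in LPS against Con, where this list split 4 and 15. Whether the 2 lists differ was not tested.

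Of 33 activating relatives and adaptors, 27 were tested, and 8 were higher and 14 lower in LPS (median -0.18), or 6 and 16 with upper-quartile scaling and 5 and 19 with library totals. Clec4e (Mincle), which senses dead cells and glycolipids, was higher by 4.46, and the adaptor gene Fcer1g by 1.21. Cd300lb (-4.22) and Cd300e (-3.89) were lower. In STSABs against LPS 4 were higher and 9 lower (median -0.09), with Clec4e (-0.94) and Pilrb1 (-0.63) lower and Trem3 (0.78) and Cd300e (1.22) higher. In UVABs 6 were higher and 8 lower (median -0.0035), or 8 and 7 with library totals.

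Of 16 ligand genes, 12 were tested. In LPS 7 were higher and 5 lower (median 0.39), and with upper-quartile scaling 5 and 5. The MHC class I genes H2-K1 and H2-D1 were higher by 1.57 and 1.41, and Spn, a sialylated surface protein, was lower (-2.30). Against LPS, 3 were higher and 3 lower in STSABs (median -0.05) and 2 and 3 in UVABs (median -0.02), led by Clec2i (1.34 and 1.32). Clec2i is in the list through a relative, since its product is a ligand of NKR-P1F, which is not a member. Of the 18 genes of sialic acid synthesis and removal, 8 were higher and 8 lower in LPS (median -0.02). St6gal1, which adds the sialic acid that several Siglecs bind, was lower (-3.95), while St3gal1 (2.38), St3gal3 (2.20) and St3gal5 (2.88) were higher. In STSABs against LPS 6 were higher and 6 lower (median -0.07) and in UVABs 6 and 7 (median -0.05), with St3gal5 lower in both (-1.82 and -1.74). In UVABs against STSABs no gene of any of these lists passed.

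**Figure D5:**
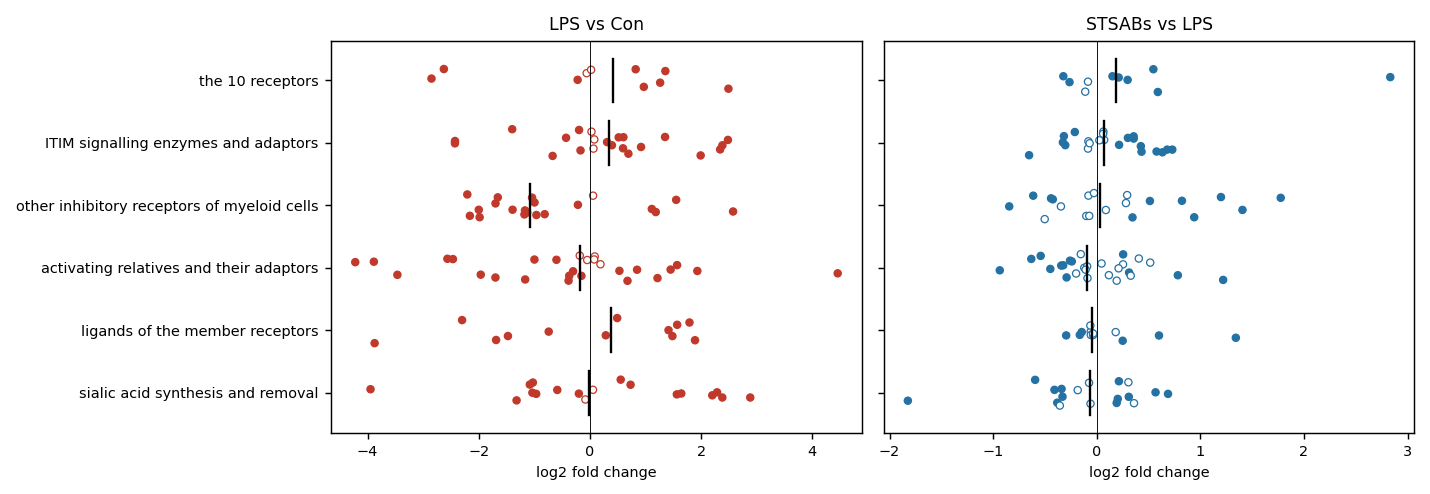
Log2 fold change (x axes) of the genes of each list for LPS against Con (left) and STSABs against LPS (right). Each circle is 1 gene, filled where the adjusted p is below 0.05, and the vertical bar is the list's median. In LPS against Con the median of the other inhibitory receptors is -1.09 and that of the 10 receptors is 0.42.

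The genes with the pattern most like each member over the 18 libraries were picked by Pearson's r of log2 CPM, given as a description, since the libraries share groups. For Klrb1b they were Fancg (r = 0.990), Flot1 (0.987) and Unc13d (0.983). Fancg averaged 14.3 CPM in Con and 6.50 in LPS, against 13.7 with STSABs and 13.6 with UVABs. For Clec2d they were Dusp2 (0.994), Irf1 (0.994) and Tagap (0.994), and for Pirb Aldh1b1 (0.997), Scarf1 (0.996) and Irf8 (0.996). For Cd300a they were Ssh2 (0.994), Inpp5d (0.993) and Coro1c (0.991). Inpp5d is the gene of the phosphatase SHIP-1. For Lilrb4a they were Ube2d3 (0.995), Rars (0.991) and Zdhhc5 (0.991), and for Cd300lf Ppp1r3b (0.982), Wipi1 (0.9755) and Slc16a3 (0.969). For Siglece they included Map3k1 (0.980) and Ndrg1 (0.978), and for Siglec1 D5Ertd579e (0.973), Sbf2 (0.971) and Sash1 (0.969). Clec12a (St7, 0.940) and Sirpa (Usp31, 0.968) had the lowest leading values.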

How the data were processed

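PolyA RNA of 18 mouse bone marrow macrophage libraries was sequenced in read pairs, from dUTP libraries per the labels' protocols. The authors deposited 1 table of estimated counts per gene, and 6.35% of its values, in 2017 genes, were not whole. HISAT2 and mm39 are named per the submitters' processing notes. The counting tool and strand setting were not given in the sources used here. Columns were matched to libraries by name.

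Counts were rounded and genes filtered with filterByExpr by group, which kept 12465 genes and 99.974% of counts. One edgeR 4.0.16 quasi-likelihood fit with TMM scaling (R 4.3.3) covered all 4 groups and assumed 1 dispersion per gene in all of them, with Benjamini-Hochberg adjustment over all genes and a threshold of 0.05. The spreads were not equal: the CV of Klrb1b was 6.12% over the Con and 9.91% over the LPS libraries, against 20.3% (STSABs) and 31.8% (UVABs). SE is the log2 difference divided by the square root of F. limma 3.58.1 (voom), DESeq2 1.42.0, other scalings, filters, sample sets and replicate blocks were alternatives, and 1 of these, the block in the AB groups alone, was chosen after seeing the data. The script was tested on simulated data. The deviations of same-numbered STSABs and UVABs libraries correlated at 0.116 to 0.540 over 12465 genes in all 5 pairs, so those numbers were taken to pair these libraries. Each of these libraries matched its own number best for numbers 1 to 4, but not for number 5 (0.137). Other group pairs ranged from -0.0986 to 0.107 and were not taken as paired. Even so, Con and LPS libraries 1 to 3 also matched their own numbers best, as did Con 1 and STSABs 1.

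The members and lists were chosen with earlier results of these data known. Named genes are all 10 members, up to 4 genes per list and comparison by smallest adjusted p, and the 3 genes most like each member. Some genes that this rule names are not reported here. Neighbours were named after their values were seen. No list was tested as a set. The reference used for neighbours, promoters and transcript lengths was GRCm38, a build other than the one named for the reads, so no coordinates were transferred. Of the list symbols, Cd300lh was matched by synonym to Cd300ld3, and 7 had no row that was used. No libraries were duplicates. Counts have no molecular identifiers.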

Additional observations from a re-analysis of the deposited data

Results flagged for a closer look

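Among 30 sets of 5 libraries (10 genes in 3 groups), 5 had 1 library far from the other 4 by Dixon's test at its 95% critical value of 0.71, where chance alone gives about 1 in 20. All 5 concerned a library numbered 2. Klrb1b was 60.7 CPM in STSABs 2, with the other 4 libraries between 38.1 and 42.9. It was 69.5 CPM in UVABs 2, with the others between 36.4 and 41.2. Clec12a was 39.0 CPM in STSABs 2 against 55.4 to 60.5 in the others, and 34.1 CPM in UVABs 2 against 56.3 to 63.4. Cd300a was 16.05 CPM in STSABs 2 against 10.4 to 11.2. The cause was not tested. Without both libraries the Klrb1b differences from LPS were 2.70 (STSABs) and 2.60 (UVABs).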

How the results depend on the processing

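Most limits concern comparisons with Con, whose mean TMM factor was 1.51. With library totals alone LPS against Con had 2365 genes higher and 8802 lower (4991 and 5361 as reported), 3 members higher and 5 lower. Upper-quartile scaling also gave 5 members lower. Calls higher were 48.2% of all calls as reported, 36.03% with upper-quartile scaling and 21.2% with library totals. STSABs against Con gave 2510 and 8511 genes with library totals (4989 and 5313 as reported) and UVABs against Con 2504 and 8523 (5013 and 5288), with 6 members lower in each. Sirpa reversed in LPS against Con at -0.26 (upper quartile) and -0.73 (totals). With totals, Klrb1b was -0.49 and -0.51, Lilrb4a -0.20 and -0.19 and Cd300lf -0.37 and -0.36 in STSABs and UVABs against Con. Under totals the median gene was itself at -0.74 in both. The other call changes of single members, 13 on leaving out a library and 13 under other settings, kept their direction.

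With the replicate block, Klrb1b in STSABs against Con was 0.25 (adjusted p = 0.0485), and no other member call changed. UVABs against STSABs stayed at 0 genes with the block, with or without the other groups. At 91 counts, Klrb1b in LPS has the largest counting error of any member.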
